A study of Mus musculus with 15 samples.

Results

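The 10 C-type lectin receptor genes were followed across 5 states of cultured mouse macrophages: Mrc1, Mgl2, Clec10a, Clec7a, Clec4n, Clec4d, Clec4e, Clec4a2, Cd209a and Cd72. The members were chosen by name, and each was represented by the array probe set annotated to it alone that had the highest mean over all 15 arrays. All 10 were among the 18193 genes that had their own probe set, and all 10 passed the filter on low values that left 13703 genes for testing. The cells were mouse bone marrow macrophages cultured for 7 days in medium with M-CSF, on which marrow precursors become macrophages. M0 cells were left without treatment, M1 cells received E. coli LPS with interferon-gamma, and M2 cells received IL-4 with IL-13. The last 2 groups were M2 cells that also received nutlin-3a, a small molecule that occupies the p53 pocket of MDM2, or 10058F4, a small molecule that keeps MYC from pairing with MAX. Each group had 3 arrays, 1 per RNA sample. The sources used here give no strain, sex, dose, vehicle or length of treatment. The labels number the samples as biological replicates but do not tie them to separate mice or dishes, and the p-values rest on the spread among the 3 samples of a group, which may be technical only.

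C-type lectin receptors are cell surface proteins that bind sugars or other ligands through a shared fold, the C-type lectin-like domain. Some take up glycoproteins for degradation, some signal through the kinase Syk after binding fungal or mycobacterial glycans, either by a motif of their own or through the adaptor Fcer1g, and some carry an inhibitory motif that recruits phosphatases such as Ptpn6 (SHP-1). In macrophages the mannose receptor and the galactose-type lectins are known as markers of the response to IL-4, and Mincle, encoded by Clec4e, as a gene induced by LPS.

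Several members lie side by side in the RefSeq annotation of GRCm38.p6. Mgl2 and Clec10a are neighbours on chromosome 11, and Clec4n, Clec4d and Clec4e follow one another on chromosome 6 close to Clec4a2. Of the 10 members, 8 had a promoter sequence in the RefSeq set, running from 250 bases before to 50 bases after the gene start, and Clec10a and Clec4n had none there. Promoters of 4 members are printed because their genes gave the largest differences between states among these 8, Mrc1 and Clec7a on one side and Clec4e and Cd72 on the other, each 5′ to 3′ on the strand of its gene. They are Mrc1 at chr2:14229164-14229463 on the plus strand, Clec7a at chr6:129472730-129473029, Clec4e at chr6:123289822-123290121 and Cd72 at chr4:43454577-43454876, the last 3 on the minus strand. Capitals mark any match to a searched motif.
Mrc1: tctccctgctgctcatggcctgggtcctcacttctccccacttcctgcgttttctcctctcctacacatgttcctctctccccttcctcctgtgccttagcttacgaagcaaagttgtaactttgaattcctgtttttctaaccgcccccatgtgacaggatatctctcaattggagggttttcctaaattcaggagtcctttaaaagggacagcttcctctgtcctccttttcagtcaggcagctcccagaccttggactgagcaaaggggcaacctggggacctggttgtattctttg
Clec7a: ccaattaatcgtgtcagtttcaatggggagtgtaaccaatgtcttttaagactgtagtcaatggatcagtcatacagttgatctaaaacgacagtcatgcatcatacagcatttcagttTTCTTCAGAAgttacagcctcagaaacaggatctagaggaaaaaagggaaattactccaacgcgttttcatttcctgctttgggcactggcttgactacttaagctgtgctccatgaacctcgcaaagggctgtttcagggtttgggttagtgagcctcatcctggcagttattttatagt
Clec4e: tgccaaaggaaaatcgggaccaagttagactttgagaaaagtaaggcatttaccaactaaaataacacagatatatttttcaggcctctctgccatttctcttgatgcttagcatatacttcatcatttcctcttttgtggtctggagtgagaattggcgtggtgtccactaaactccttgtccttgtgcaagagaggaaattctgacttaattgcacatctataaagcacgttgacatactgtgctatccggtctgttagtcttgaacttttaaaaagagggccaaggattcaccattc
Cd72: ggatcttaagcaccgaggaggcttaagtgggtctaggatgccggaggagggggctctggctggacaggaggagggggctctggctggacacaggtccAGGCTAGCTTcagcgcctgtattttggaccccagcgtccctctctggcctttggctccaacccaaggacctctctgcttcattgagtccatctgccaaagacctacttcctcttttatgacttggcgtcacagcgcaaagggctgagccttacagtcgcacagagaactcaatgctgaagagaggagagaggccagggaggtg

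Motifs were searched on both strands in the promoters of the 8 members, and no matches in them overlapped. The spaced palindrome TTCNNNNGAA, the form that STAT6 is known to prefer, was found in 1 member, Clec7a, as TTCTTCAGAA at bases -131 to -122 from the gene start, while 6.95% of all 32851 promoters of this length hold it. The shorter form TTCNNNGAA, preferred by other STAT proteins, was found in Clec4a2 (8.30% of all promoters). The interferon-response core GAAANNGAAA was found in Clec4d (3.44% of all), the decamer of the p53 response element in Cd72 as AGGCTAGCTT at bases -153 to -144 (8.36% of all), and the E-box CACGTG (7.15% of all) and the kappa-B element (8.46% of all) in no member. These are matches of letters and say nothing on whether a factor binds there.

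Macrophage markers were high in every group: all 10 of 10, among them Csf1r, Adgre1 and Cd68, lay above the 40th percentile of the array on all 15 arrays, and their summed level (log2 of the sum) ran from 15.72 to 15.88. The M2 marker Retnla averaged 9.66 in M2 against 4.45 in M0, the M1 gene Nos2 reached 8.56 in M1, and the p53 target Mdm2 went from 9.19 in M2 to 11.18 with nutlin-3a, all log2 levels. On M1 array 2, 126 genes lay more than 1 log2 unit from both other M1 arrays, against 3 to 31 genes on any other array, and Arg1 read 8.76 there against 5.35 and 5.30 on the other M1 arrays. M1 results are therefore given with and without that array where it matters. The log2 3′ minus 5′ signal of beta-actin, a sign of RNA integrity, averaged 0.18 in M1 against 0.35 to 0.49 in the other groups, that of Gapdh averaged -0.16 in M1 against -0.28 to -0.27, and their part in the results was not tested. Arrays measure RNA from the whole culture, so fewer cells expressing a gene and less RNA per cell cannot be told apart. Values below are the deposited log2 expression values, differences are between group means on that scale, and a gene was called at a Benjamini-Hochberg adjusted p under 0.05 in limma's test over all 13703 genes. Where all arrays of a group lay at or below the 40th percentile of the array, only a bound on the fold is given, set against that percentile in place of the measured level.

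Against M0 cells, M1 cells had lower Mrc1, Clec10a, Clec7a and Clec4a2 and higher Clec4e, Cd72 and Cd209a, while M2 cells had higher Mrc1, Mgl2, Clec10a and Clec7a and lower Clec4d, Clec4e and Clec4a2. Against M0, 3 members were higher and 4 lower in M1, where 72.7% of all genes tested were called (33.6% higher and 39.1% lower). In M2 4 were higher and 3 lower than in M0, where 31.0% of genes were called (12.7% higher and 18.4% lower). Between M1 and M2, 4 members were higher and 4 lower in M1, against 64.7% of all genes called (28.1% higher and 36.5% lower). With nutlin-3a, 2 members were higher and 2 lower than in M2 alone, with 15.4% of all genes called (9.56% higher and 5.85% lower), and with 10058F4 3 were higher and 4 lower, with 20.9% called (10.6% higher and 10.2% lower). The median difference over the 10 members was -0.05 for M1 against M0 and 0.15 for M2 against M0, beside -0.0048 and -0.0037 over all genes tested. Without M1 array 2, 3 members were higher and 6 lower in M1 than in M0 (75.2% of genes called), and 3 higher and 5 lower in M1 than in M2 (67.0% called).

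**Figure D1:**
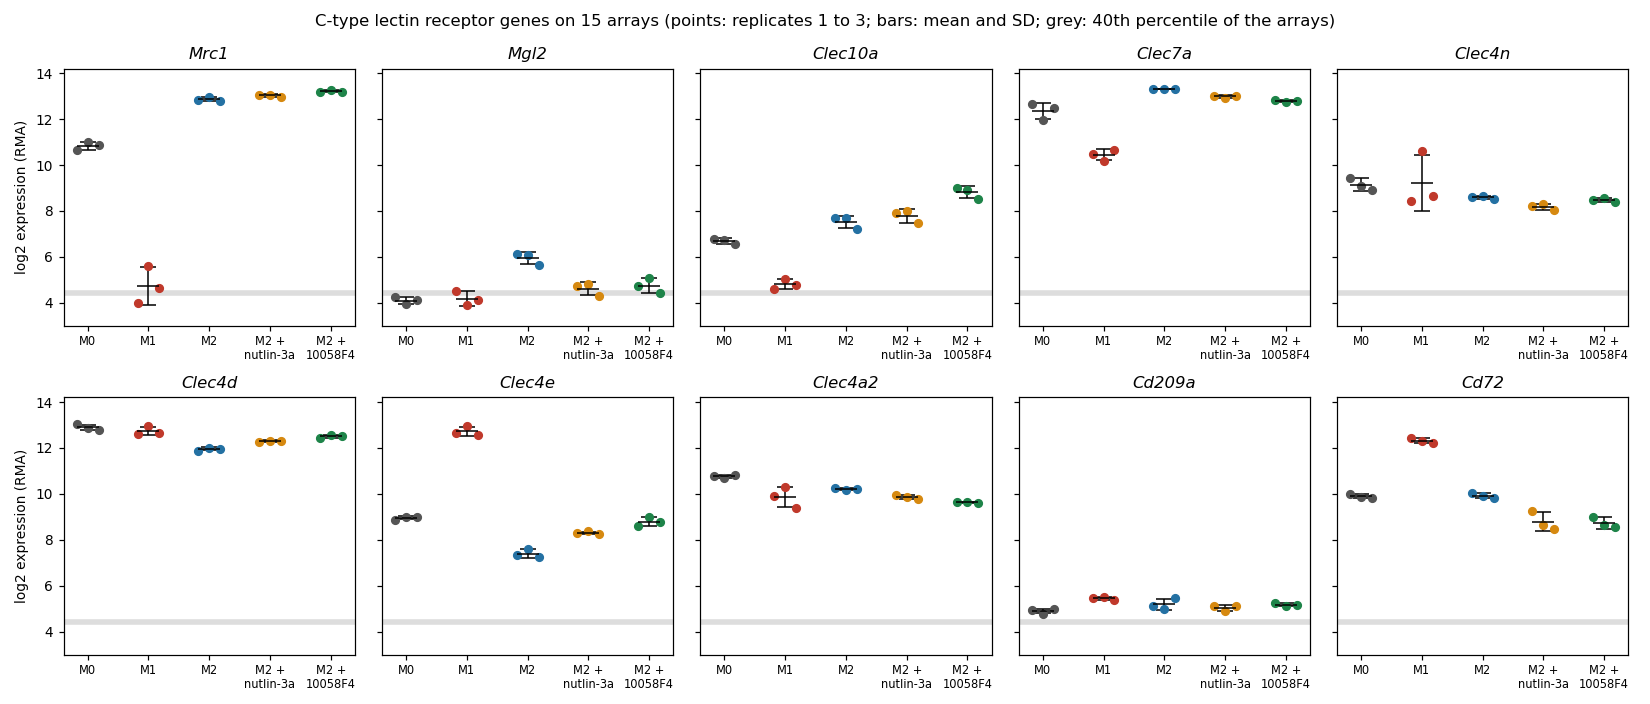
Log2 expression (RMA, vertical axis) of the 10 genes on each of 15 arrays, by group; points are replicates 1 to 3, bars are the mean and SD of 3 arrays, and the grey band spans the 40th percentiles of the arrays. Mrc1 falls to 4.74 in M1 from 10.83 in M0, Clec4e and Cd72 stand highest in M1, and Mgl2 rises above the band in M2 (5.95).

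Mrc1 encodes the mannose receptor CD206, an endocytic receptor for glycans ending in mannose, fucose or N-acetylglucosamine. Its log2 values were 10.64, 10.98 and 10.86 on the M0 arrays, 3.98, 5.60 and 4.63 on the M1 arrays and 12.81, 12.96 and 12.80 on the M2 arrays. M1 arrays were lowest and M2 arrays highest, with no overlap between these groups, and the M1 arrays stood close to the 40th percentile of the array (-0.53, 1.13 and 0.13 log2 units from it). The M1 difference from M0 was -6.09 (SE 0.27, n = 3 per group; limma adjusted p 6.97e-11), and it was -6.52 without M1 array 2. In M2 the gene was 4.09-fold higher than in M0 (difference 2.03, SE 0.27; limma adjusted p 4.83e-05). The agents left it at 13.07, 13.05 and 12.97 with nutlin-3a and 13.18, 13.26 and 13.19 with 10058F4. These arrays all lay above the M2 arrays, and neither difference from M2 was called in the fit over all 15 arrays (0.17 and 0.35, SE 0.27 each; limma adjusted p 0.726 and 0.401). The SE pools all 5 groups, and without M1 array 2 it was 0.13, with a limma adjusted p of 0.066 for 10058F4. With only the 6 arrays compared, the 10058F4 difference was called (limma adjusted p 0.00606, in a range of 0.00606 to 0.565 over the alternatives).

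Mgl2 encodes the galactose-type lectin CD301b, which binds terminal galactose and N-acetylgalactosamine. It was near the bottom of the array range outside M2: 4.25, 3.94 and 4.11 in M0, all below the 40th percentile, and 4.53, 3.90 and 4.13 in M1. M2 arrays read 6.14, 6.06 and 5.65, above every other array, with the nutlin-3a arrays at 4.73, 4.83 and 4.30 and the 10058F4 arrays at 4.73, 5.08 and 4.44. M2 was at least 3.01-fold higher than M0 (measured difference 1.85, SE 0.20; limma adjusted p 7.19e-06). Both agents lowered it in M2 cells, by 2.51-fold with nutlin-3a (difference -1.33, SE 0.20; limma adjusted p 0.000478) and by 2.30-fold with 10058F4 (difference -1.20, SE 0.20; limma adjusted p 0.000558). Compared with M0, the remaining measured difference was 0.52 with nutlin-3a, not called (limma adjusted p 0.0618). With the replicate number as a block its limma adjusted p was 0.0283, in a range of 0.0282 to 0.196 over the alternatives. With 10058F4 the measured difference was 0.65 (limma adjusted p 0.0199). Set against the 40th percentile in place of the M0 level, the differences were 0.26 and 0.39, the latter a bound of at least 1.31-fold with 10058F4. The 10058F4 call was lost without M0 array 2 or without 10058F4 array 2, over a range of 0.00793 to 0.0974 across all alternatives.

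Clec10a, the neighbour of Mgl2, encodes the related lectin CD301a. Its log2 values were 6.78, 6.74 and 6.55 in M0, 4.61, 5.04 and 4.79 in M1 and 7.68, 7.68 and 7.22 in M2. The groups did not overlap: the signal was 3.69-fold lower in M1 than in M0 (difference -1.88, SE 0.17; limma adjusted p 2.31e-07) and 1.79-fold higher in M2 (difference 0.84, SE 0.17; limma adjusted p 0.00214). With nutlin-3a the arrays read 7.91, 8.01 and 7.45, overlapping M2 (difference 0.26, SE 0.17; limma adjusted p 0.348), and with 10058F4 they read 9.02, 8.93 and 8.53, above all other arrays. The 10058F4 difference from M2 was 1.30 (2.46-fold, SE 0.17; limma adjusted p 0.000105). Clec10a and Mgl2 thus had opposite calls with 10058F4, one higher and one lower than in M2 on all 3 arrays.

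Cd209a encodes a mouse relative of the dendritic cell lectin DC-SIGN and read low in all groups. Its levels were 4.93, 4.79 and 4.97 in M0, 5.49, 5.50 and 5.37 in M1, and 5.12, 4.97 and 5.46 in M2. The M1 arrays stood above the M0 arrays by 0.55 (SE 0.11; limma adjusted p 0.000386), a 1.47-fold higher signal, and overlapped M2. M1 against M2 was at the edge of the threshold (0.27, SE 0.11; limma adjusted p 0.0443, with 0.00121 to 0.218 over the alternatives, among them 0.097 without M1 array 2). M2 against M0 was 0.29 (SE 0.11), not called at limma adjusted p 0.0585 and called at 0.036 with the replicate block, in a range of 0.0161 to 0.263 over the alternatives. The agent arrays lay between 4.89 and 5.25, overlapping M2. The summed level of 10 dendritic cell markers was 8.29 to 8.67 in M1 against 7.81 to 8.02 elsewhere. Of these markers, 7 of 10 lay above the 40th percentile on all M1 arrays against 5 of 10 in each other group. Xcr1 and Ccr7 lay below the 40th percentile in all groups but M1, where they averaged 6.05 and 5.41, and Itgae and Kit lay below it in every group. Flt3 averaged 5.7 in M1 and 5.6 in M0, and Zbtb46 5.1 and 4.9. Of the 7 tested, 3 were higher and 0 lower in M1 than in M0 (42.9% called against 72.7% of all genes). The part of these markers in the Cd209a result was not tested.

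Clec7a encodes Dectin-1, the receptor for fungal beta-glucan, which signals through its own tyrosine motif. Log2 values were 12.64, 11.96 and 12.46 in M0, 10.49, 10.18 and 10.67 in M1 and 13.29, 13.29 and 13.31 in M2. M2 arrays were highest and M1 arrays lowest, with no overlap. The signal was 3.76-fold lower in M1 than in M0 (difference -1.91, SE 0.14; limma adjusted p 2.46e-08), 1.92-fold higher in M2 (difference 0.94, SE 0.14; limma adjusted p 0.000186) and 7.21-fold lower in M1 than in M2. With nutlin-3a the arrays read 13.00, 12.93 and 13.02, and with 10058F4 12.81, 12.74 and 12.79. All 6 lay below the M2 arrays, and the fall was called with 10058F4 (-0.51, SE 0.14; limma adjusted p 0.0197) and not with nutlin-3a (-0.31, SE 0.14; limma adjusted p 0.166). The 10058F4 call was lost without M2 array 1, M2 array 3 or any of the 10058F4 arrays, with values from -0.53 to -0.50 and limma adjusted p from 0.000344 to 0.0618 over all alternatives. The nutlin-3a difference was called with only the 6 arrays compared (limma adjusted p 0.00892, in a range of 0.00892 to 0.332).

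Clec4n encodes Dectin-2, which binds fungal mannans and pairs with Fcer1g. Its M1 arrays disagreed: 8.42, 10.60 and 8.63, against 9.45, 9.11 and 8.90 in M0 and 8.59, 8.64 and 8.52 in M2. The high value was that of M1 array 2, and the second probe set of the gene repeated it (7.58, 9.79 and 7.80 in M1). With all arrays Clec4n was called in no comparison among M0, M1 and M2 or of an agent with M2, M0 or the other agent: M1 differed from M0 by 0.07 and M2 differed from M0 by -0.56 (SE 0.39 each; limma adjusted p 0.88 and 0.304). Without M1 array 2 the standard error of the M2 comparison was 0.12, and Clec4n was called lower than in M0 in M1 (-0.62; limma adjusted p 0.000906), in M2 (limma adjusted p 0.00238), with nutlin-3a (-0.97; 3e-05) and with 10058F4 (-0.68; 0.000554), and lower with nutlin-3a than in M2 alone (-0.40; 0.0289). The nutlin-3a arrays read 8.20, 8.31 and 8.04, below all M2 arrays, and the 10058F4 arrays 8.46, 8.57 and 8.40, overlapping M2. On the second probe set the nutlin-3a arrays (7.62, 7.74 and 7.40) overlapped the M2 arrays (7.65, 7.77 and 7.72). There the differences from M2 were -0.13 with nutlin-3a and 0.14 with 10058F4, so the nutlin-3a fall holds for the represented probe set only. Over all alternatives the limma adjusted p ran from 0.000906 to 0.998 for M1 against M0 and from 0.00238 to 0.539 for M2 against M0.

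Clec4d encodes MCL, a partner of Mincle that also recognises the mycobacterial glycolipid trehalose dimycolate. It read 13.03, 12.89 and 12.78 in M0, 12.61, 12.95 and 12.66 in M1 and 11.89, 12.01 and 11.98 in M2. M2 arrays were lowest, while M0 and M1 overlapped. The M2 signal was 1.92-fold lower than in M0 (difference -0.94, SE 0.09; limma adjusted p 2.49e-06). M1 differed from M0 by -0.16 (SE 0.09; limma adjusted p 0.124), by -0.26 and called without M1 array 2, and by 0.17 once arrays were centred on the median of the genes tested, with limma adjusted p from 0.00675 to 0.422 over the alternatives. The agent arrays rose part of the way back, to 12.26, 12.30 and 12.33 with nutlin-3a and 12.43, 12.57 and 12.53 with 10058F4. The rise over M2 was 1.26-fold with nutlin-3a (difference 0.34, SE 0.09; limma adjusted p 0.0219) and 1.47-fold with 10058F4 (difference 0.55, SE 0.09; limma adjusted p 0.000507). The nutlin-3a call was lost without M2 array 1 (0.30), M2 array 3 (0.34), nutlin-3a array 2 (0.33) or nutlin-3a array 3 (0.32), with limma adjusted p from 0.00277 to 0.0902 over the alternatives.

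Clec4e encodes Mincle, the receptor for trehalose dimycolate and for the nuclear protein SAP130 released by dying cells. Its values were 8.88, 8.97 and 9.01 in M0, 12.67, 12.95 and 12.58 in M1 and 7.35, 7.61 and 7.25 in M2. The M1 signal was 13.7-fold higher than in M0 (difference 3.78, SE 0.11; limma adjusted p 2e-12), the M2 signal 2.93-fold lower (difference -1.55, SE 0.11; limma adjusted p 2.32e-07), and M1 and M2 were 40.3-fold apart. Clec4e therefore had the largest rise in M1 among the members and the largest fall in M2. With nutlin-3a the arrays read 8.30, 8.37 and 8.27 and with 10058F4 8.61, 8.99 and 8.78, all above M2. The rise over M2 was 1.88-fold with nutlin-3a (difference 0.91, SE 0.11; limma adjusted p 0.000143) and 2.62-fold with 10058F4 (difference 1.39, SE 0.11; limma adjusted p 1.36e-06). The 10058F4 arrays overlapped M0 (difference -0.16, SE 0.11; limma adjusted p 0.309), and the nutlin-3a arrays stayed below it (-0.64; limma adjusted p 0.000646). The other probe set of the gene gave 3.71 for M1 against M0, -1.55 for M2 against M0, 0.61 for nutlin-3a and 1.10 for 10058F4, both against M2. On that probe set the 10058F4 arrays (6.11, 6.29 and 6.08) all lay below the M0 arrays (6.57, 6.54 and 6.75), a difference of -0.46, so the overlap with M0 holds for the represented probe set only.

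Clec4a2 encodes DCIR1, a lectin with an inhibitory cytoplasmic motif. Levels were 10.78, 10.69 and 10.82 in M0, 9.92, 10.30 and 9.41 in M1 and 10.26, 10.15 and 10.21 in M2. M0 arrays were highest of all groups, and M1 arrays spread on both sides of M2. On the other probe set of the gene the M1 arrays (7.22, 7.29 and 6.88) all lay below the M2 arrays (7.91, 7.67 and 7.86). The difference there was -0.68, so the overlap of M1 with M2 holds for the represented probe set only. The gene was 1.85-fold lower in M1 than in M0 (difference -0.89, SE 0.15; limma adjusted p 0.000111) and 1.47-fold lower in M2 (difference -0.56, SE 0.15; limma adjusted p 0.0119). M1 against M2 was not called (-0.33, SE 0.15; limma adjusted p 0.0681) but was without M1 array 2 (-0.54), with the mean of its probe sets (-0.51) and with array weights (-0.52), with limma adjusted p from 0.000878 to 0.579 over the alternatives. With nutlin-3a the arrays read 9.95, 9.87 and 9.79 and with 10058F4 9.65, 9.66 and 9.62, all below M2. The 10058F4 fall was called (-0.56, SE 0.15; limma adjusted p 0.0163) and the nutlin-3a fall was not (-0.34, SE 0.15; limma adjusted p 0.154), though it was called without M1 array 2 in the fit (0.031, in a range of 0.0125 to 0.314). The 10058F4 call was lost without M2 array 1 or 10058F4 array 3 (-0.54 and -0.55, with limma adjusted p from 0.000289 to 0.0564 over the alternatives).

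Cd72 encodes an inhibitory co-receptor best known on B cells, which recruits Ptpn6 through its cytoplasmic motif and binds semaphorin Sema4D. It read 9.99, 9.86 and 9.84 in M0, 12.43, 12.30 and 12.24 in M1 and 10.03, 9.90 and 9.81 in M2. M1 arrays stood apart above all others, and M0 and M2 overlapped. The M1 signal was 5.37-fold higher than in M0 (difference 2.42, SE 0.17; limma adjusted p 1.09e-08), and M2 differed from M0 by 0.01 (SE 0.17; limma adjusted p 0.961). Both agents took Cd72 below M2 and M0 alike, to 9.28, 8.66 and 8.45 with nutlin-3a and 9.01, 8.64 and 8.54 with 10058F4. The signal was 2.17-fold lower than in M2 with nutlin-3a (difference -1.12, SE 0.17; limma adjusted p 0.000572) and 2.27-fold lower with 10058F4 (difference -1.18, SE 0.17; limma adjusted p 0.000186), and 2.15-fold and 2.25-fold lower than in M0. B cell markers were low throughout: of 8 listed, 7 had a probe set, of these 3 lay above the 40th percentile on all arrays in M0, M1 and M2, 2 with nutlin-3a and 1 with 10058F4, Ms4a1 was below it in all groups but M2, and the summed level was 7.36 to 7.49 in M1, 7.36 to 7.48 in M2, 7.09 to 7.25 in M0 and 7.13 to 7.24 with the agents. Of the 5 tested, 2 were lower with each agent than in M2, where 5.85% of all genes were lower with nutlin-3a and 10.2% with 10058F4. Cd79b lay below the 40th percentile on all 10058F4 arrays. The part of the B cell markers in the Cd72 fall was not tested.

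**Figure D2:**
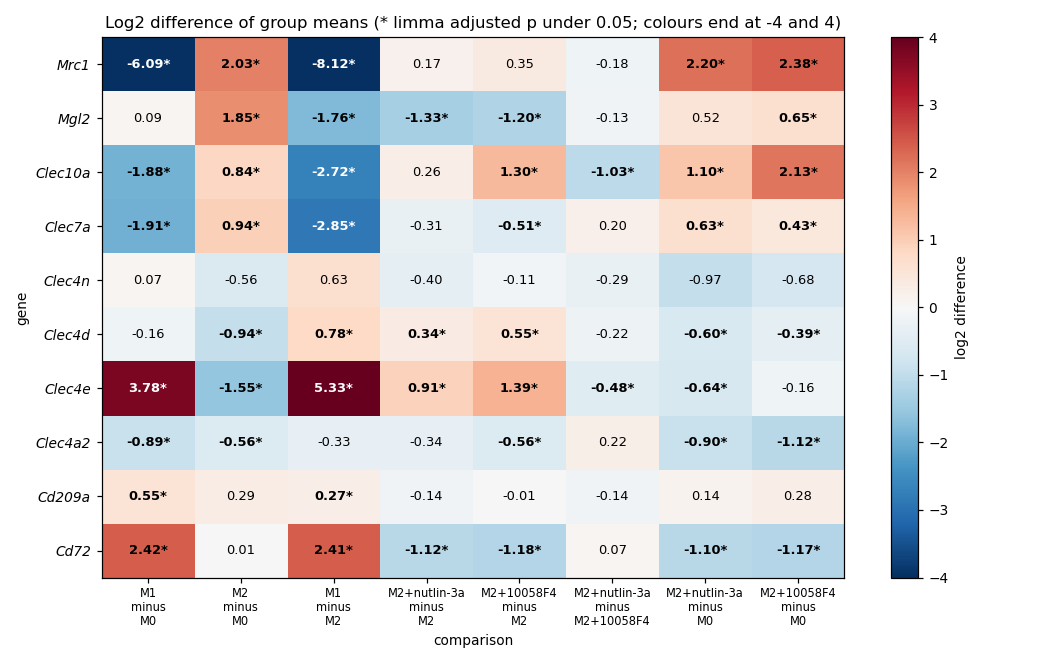
Differences of group means on the log2 scale for the 10 genes (rows) in 8 comparisons (columns), with colours ending at -4 and 4; a star marks a limma adjusted p under 0.05. Mrc1, Clec10a and Clec7a are lower in M1 than in M0 and higher in M2, while Clec4e runs the other way (3.78 and -1.55).

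Side by side, the differences from M2 with nutlin-3a and then 10058F4 were -1.33 and -1.20 for Mgl2, -1.12 and -1.18 for Cd72, 0.34 and 0.55 for Clec4d and 0.91 and 1.39 for Clec4e, each of them called. These comparisons share the M2 arrays and are not independent. Set directly against each other, the agents differed in 2 members, where 6.96% of all genes were called (4.24% higher and 2.72% lower with nutlin-3a). Clec10a was 2.05-fold lower with nutlin-3a than with 10058F4 (difference -1.03, SE 0.17; limma adjusted p 0.00183) and Clec4e was 1.40-fold lower (difference -0.48, SE 0.11; limma adjusted p 0.0203). The Clec4e call was lost without nutlin-3a array 1 (-0.47) or 3 (-0.46) or 10058F4 array 2 (-0.38) or 3 (-0.49), with limma adjusted p from 0.00303 to 0.0993 over the alternatives. For the other 8 members the direct difference lay between -0.29 (Clec4n) and 0.22 (Clec4a2) and was not called. Relative to M0, 3 members were higher and 4 lower in M2 cells with nutlin-3a, where 28.9% of all genes were called (13.3% higher and 15.6% lower). With 10058F4 4 were higher and 3 lower, where 33.0% were called (14.0% higher and 19.1% lower).

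**Figure D3:**
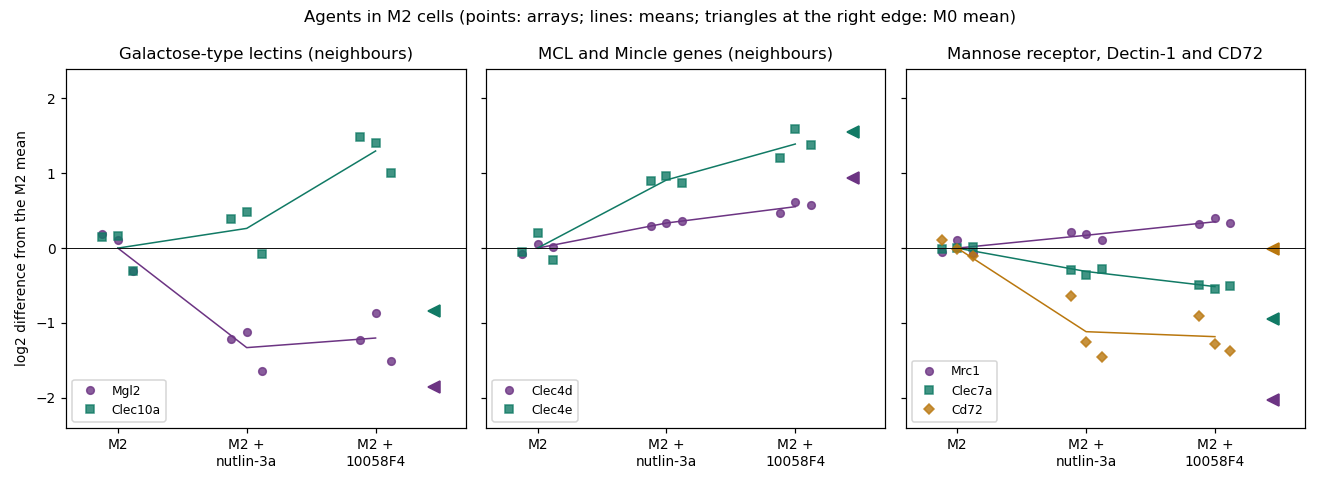
Log2 difference of each array from the M2 mean (vertical axis) for 7 of the genes in M2 cells alone and with each agent; points are arrays, lines join group means, and triangles at the right edge give the M0 mean. Mgl2 falls by 1.33 and 1.20 with the agents while its neighbour Clec10a rises by 1.30 with 10058F4, and Clec4e with 10058F4 comes close to its M0 mean on the probe set shown, against -0.46 from M0 on the other.

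Ordered by group mean, the neighbouring states without a call between them in the fit over all 15 arrays were as follows. The SE of that fit pools all groups, and a missing call does not show that levels are alike. For Mrc1 the M2 groups with and without the agents were not called apart and stood above M0, which stood above M1. Mgl2 was highest in M2, and no neighbours among the other 4 groups were called apart. Clec10a fell in the order 10058F4, then nutlin-3a and M2 without a call, then M0, then M1. Clec7a had M2, nutlin-3a and 10058F4 as neighbours without a call, then M0, then M1, and the call of 10058F4 over M0 (0.43; limma adjusted p 0.0337) was lost without M0 array 2 (0.23) or any of the 10058F4 arrays (0.41 to 0.45), with limma adjusted p from 0.00754 to 0.157 over the alternatives. Clec4e ran from M1 through M0 and 10058F4, not called apart, to nutlin-3a and M2, and Cd72 from M1 through M2 and M0, not called apart, to both agents, not called apart. In M1 against M2 with nutlin-3a and with 10058F4, 69.4% and 66.8% of all genes were called. Clec4d ran from M0 and M1, not called apart, through 10058F4 and nutlin-3a, not called apart, to M2. The Clec4d call of M1 over 10058F4 (0.23; limma adjusted p 0.0362) was lost without M1 array 2 (0.12; limma adjusted p 0.167), when M0 over M1 was called instead (limma adjusted p 0.00675). For Clec4a2 only M0 was called apart from its neighbour, for Cd209a only M1, and for Clec4n no neighbours were. Some of these neighbours had arrays that did not overlap, namely both pairs within the M2 groups for Mrc1 and for Clec7a, the agents for Clec4n, Clec4d and Clec4a2, and M0 and M2 for Clec4n. The share of all genes tested whose arrays do not overlap is not given. Here and above, a lack of overlap therefore describes the arrays only and is no test.

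The other genes of the family were taken from a list of 38 with a C-type lectin-like domain, of which 32 had a probe set of their own and 22 were tested. In M1 against M0, 11 were higher and 7 lower, with 81.8% called against 72.7% of all genes. The median difference was 0.23 beside -0.0048 over all genes tested. Some genes with a higher mean in M1 read low in both groups. Cd209d averaged 5.34 in M1 and 4.84 in M0, Clec2h 5.42 and 5.14, and Mrc2 5.18 and 4.90. The activation antigen Cd69 rose from 4.59, 4.76 and 4.50 to 11.42, 10.78 and 11.71, a difference of 6.69 (SE 0.17; limma adjusted p 4.92e-13). Klrk1, which encodes the activating receptor NKG2D, was at least 42.3-fold higher (measured difference 5.52, SE 0.62; limma adjusted p 1.81e-06), with 10.90, 7.54 and 10.86 on the M1 arrays, the low one being array 2, and by 6.63 without that array. Klra2 was at least 3.71-fold higher, with a measured difference of 3.60. Both passed the filter on low values through their M1 arrays, being below the 40th percentile on all arrays of M0 and M2. The phospholipase A2 receptor Pla2r1 rose by 0.89, while the scavenger receptor Colec12 fell by 4.15, Clec4b1 by 2.65, Langerin (Cd207) by 2.07 and Clec4a3 by 1.59. In M1, 2 of 3 arrays lay above the 40th percentile for each of Colec12, Clec4b1 and Cd207. The split of 11 and 7 became 13 and 7 when arrays were centred on the median of the genes tested, 7 and 7 when centred on the array median and 9 and 7 with quantile normalization repeated.

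In M2 against M0, 2 of the 22 were higher and 6 lower (median -0.07), with 36.4% called against 31.0% of all genes. Olr1, the receptor LOX-1 for oxidised LDL, was at least 1.86-fold higher (measured difference 2.10, SE 0.23, limma adjusted p 1.13e-05). Clec11a was called higher by 0.31 (limma adjusted p 0.0296), but its arrays overlapped (5.13, 4.90 and 5.36 in M0, 5.53, 5.48 and 5.32 in M2). Olr1 passed the filter through its M2 arrays and lay below the 40th percentile on every array of the other 4 groups. Clec4b1, Colec12 and Clec2d fell by 1.25, 1.11 and 0.71, and Cd69 was at least 1.14-fold lower, at 3.82 in M2 against 4.62 in M0, with all M2 arrays below the 40th percentile. Between M1 and M2, 7 were higher and 7 lower in M1 (median 0.13), with 63.6% called against 64.7% of all genes. They were led by Cd69 (7.48), Klrk1 (5.73), Klra2 (3.80) and Clec2d (0.90) on the higher side. Colec12 (-3.04), Cd207 (-1.95), Clec4a3 (-1.58) and Olr1 (-1.56) led the lower side. These are measured differences, and the dimmer group lay below the 40th percentile on all arrays for Cd69, Klrk1, Klra2 and Olr1. The split was 12 and 6 when arrays were centred on the median of the genes tested. With nutlin-3a 2 rose and 3 fell against M2 (median -0.10), or 1 and 5 with that centring, 1 and 3 with quantile normalization repeated and 3 and 3 with centring on the array median. With 10058F4 2 rose and 5 fell (median -0.04). The share called was 22.7% with nutlin-3a and 31.8% with 10058F4, against 15.4% and 20.9% of all genes. Clec5a, a receptor that signals through DAP12, fell with both agents, from 7.86, 7.87 and 7.90 in M2 to 6.70, 7.00 and 6.87 with nutlin-3a (difference -1.02, SE 0.13; limma adjusted p 0.000188) and to 6.35, 6.34 and 6.17 with 10058F4 (-1.59, SE 0.13; limma adjusted p 1.47e-06). Olr1 was at least 1.83-fold and 1.79-fold lower, Clec4a3 fell by 0.48 and 0.60, and Cd207 rose by 0.68 and 0.58, each with nutlin-3a and then 10058F4. Clec2d rose by 0.47 with nutlin-3a, and with 10058F4 Colec12 rose by 0.53. Cd69, counted among the falls with 10058F4, lay below the 40th percentile on all arrays of both groups, and no fold is given.

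**Figure D4:**
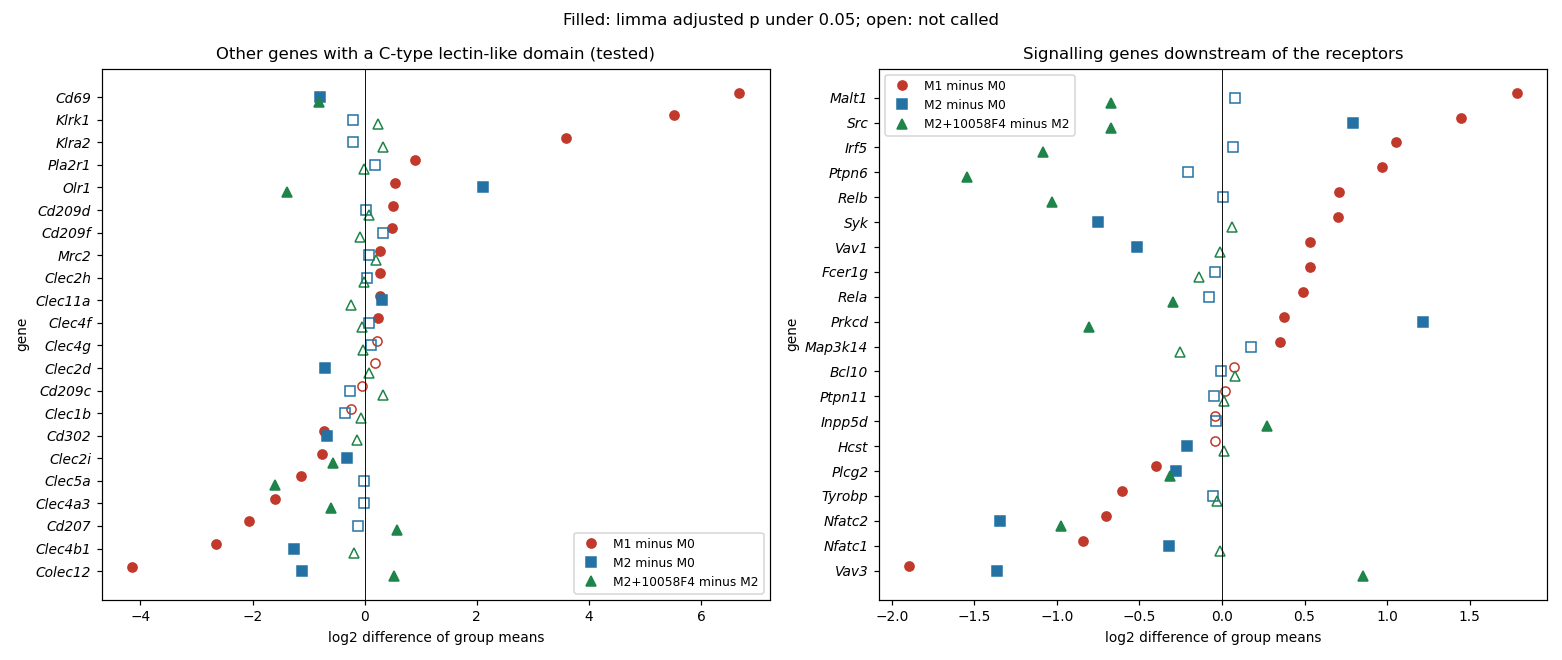
Log2 differences of group means (horizontal axis) for the 22 other tested genes with a C-type lectin-like domain and the 20 signalling genes, in M1 against M0, M2 against M0 and 10058F4 against M2; filled symbols have a limma adjusted p under 0.05. Cd69, Klrk1 and Klra2 stand far to the right in M1 (6.69, 5.52 and 3.60, the last 2 measured against M0 levels below the 40th percentile) and Ptpn6 falls furthest with 10058F4 among the signalling genes (-1.54).

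Of 24 listed signalling genes downstream of these receptors, 20 had a probe set of their own and all 20 were tested. In M1 against M0, 11 were higher and 5 lower (median 0.36), with 80.0% called against 72.7% of all genes. The paracaspase Malt1 rose by 1.79, the kinase Src by 1.44, Irf5 by 1.06 and the phosphatase Ptpn6 by 0.97, and Vav3, Nfatc1, Nfatc2 and the adaptor Tyrobp (DAP12) fell by 1.89, 0.84, 0.70 and 0.61. The adaptor Fcer1g, through which Dectin-2, MCL and Mincle signal, rose by 0.53 (SE 0.05; limma adjusted p 4.76e-07). In M2 against M0, 2 were higher and 7 lower (median -0.05), with 45.0% called against 31.0% of all genes. Prkcd rose by 1.22 and Src by 0.79, and Vav3, Nfatc2, Syk and Vav1 fell by 1.36, 1.35, 0.75 and 0.51. Syk, the kinase shared by the activating receptors, read 9.65, 9.64 and 9.67 in M0, 10.45, 10.24 and 10.38 in M1 and 8.79, 8.86 and 9.05 in M2, so the 3 states did not overlap.

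Between M1 and M2, 11 signalling genes were higher in M1 and 4 lower (median 0.37), with 75.0% called against 64.7% of all genes. Malt1 (1.71), Syk (1.46), Ptpn6 (1.18) and Vav1 (1.05) were higher. Prkcd (-0.84), Tyrobp (-0.55), Vav3 (-0.53) and Nfatc1 (-0.52) were lower. With nutlin-3a 2 rose and 5 fell against M2 (median -0.13), and with 10058F4 2 rose and 9 fell (median -0.20). The share called was 35.0% with nutlin-3a and 55.0% with 10058F4, against 15.4% and 20.9% of all genes. Ptpn6, the phosphatase recruited by Cd72, read 10.09, 10.09 and 9.89 in M2, 9.22, 9.17 and 9.13 with nutlin-3a and 8.52, 8.58 and 8.34 with 10058F4. Its differences from M2 were -0.85 (SE 0.09; limma adjusted p 3.18e-05) and -1.54 (SE 0.09; limma adjusted p 5.85e-08), without overlap of the groups. With nutlin-3a Irf5, Prkcd and Relb fell by 0.74, 0.58 and 0.31, and Vav3 and Nfatc1 rose by 0.51 and 0.26. With 10058F4 Irf5, Relb and Nfatc2 fell by 1.09, 1.03 and 0.97, and Vav3 and the lipid phosphatase Inpp5d rose by 0.86 and 0.27. With arrays centred on the median of the genes tested, the splits were 15 and 4 for M1 against M0, 15 and 4 for M1 against M2 and 1 and 8 for nutlin-3a, the last also with quantile normalization repeated.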

How the data were processed

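RNA from 15 samples in 5 groups, named by the sample titles, was read on 15 one-colour arrays from biotin-labelled cRNA. The authors deposited log2 expression values for each probe set. RMA is named in the submitters' processing notes, without a version. RMA brings the probe intensities of all arrays to the same distribution, so a shift of most genes would be hidden. The deposited probe set values still differed somewhat, with 40th percentiles from 4.34 (M0 array 2) to 4.52 (M1 array 1). Of 45101 probe sets, 64 were controls, 34945 named 1 gene, 932 several and 9160 none, and the RefSeq table of GRCm38.p6, the source of symbols, gene order and promoters, held 34741 of the gene IDs.

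The members and lists were chosen with earlier results of these data known. A gene was tested if above the 40th percentile of the array on at least 3 arrays (13703 genes; 4490 were not). All 15 arrays entered 1 limma fit (lmFit, eBayes) of 5 group means, with 3.86 prior and 10 residual degrees of freedom, contrasts were adjusted by Benjamini-Hochberg, and the procedure was tested on simulated data. Named genes were the members, per list and comparison up to 4 called genes with the largest rise and 4 with the largest fall, label checks, and the 2 genes most like each member. Fcer1g and the array values of Syk were chosen after their values were seen. Cd209d, Clec2h, Mrc2 and the single cell type markers lay outside this rule too, and were named for their levels.

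Replicate numbers 1 to 3 recur in all groups, and the labels do not say what a number shares. Deviations of same-numbered arrays from their group means correlated with r of 0.232 to 0.466 in every comparison without M1, above the limit of 0.1 for pairing, and with r of 0.055 to 0.263 in those with M1. Alternatives were other filters and probe set rules, quantile normalization, centring, array weights, eBayes with trend and robust, only the 6 arrays compared, the replicate block and each array left out. Centring on the tested genes, leaving M1 array 2 out of the shared spread, the comparisons of M1 with each treated M2 group, used for the order of levels, and the bounds set against the 40th percentile were chosen after seeing the data. R 4.3.3, limma 3.58.1, Python 3.11.15, pandas 2.3.3 and matplotlib 3.10.9 were used.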

Additional observations from a re-analysis of the deposited data

How the results depend on the processing

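Of 1420 values of member differences under alternatives, 1332 kept their direction and their side of the threshold, 31 lost a call, 35 gained one and 22 changed sign; of 318 counts 312 stayed within 1.5 times. The members called with nutlin-3a against M2 were 4, and 7 with only the 6 arrays compared. Those between the agents were 2, and 1 to 2 with 1 array left out. The other lectin-domain genes called with nutlin-3a were 5, and 8 with array weights. The replicate block changed no member count by over 1.5 times. With the pairing as a block, Cd209a in M2 against M0 (0.29), Cd209a with 10058F4 against M0 (0.28; limma adjusted p 0.0382, 0.0165 to 0.199 over the alternatives) and Mgl2 with nutlin-3a against M0 (0.52) became calls, and no other member call changed.

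Centring on the median of the genes tested moved the median of all genes in M1 against M0 from -0.005 to 0.321, with 7619 genes higher and 3505 lower in place of 4601 and 5362, so small M1 differences depend on the scaling. M1 against M2 went to 6896 and 3644 from 3855 and 5005, M2 against M0 to 2801 and 1791 from 1735 and 2518, and nutlin-3a against M2 to 926 and 1320 from 1310 and 802.

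Sign changes touched only differences that were not called with all arrays. For M1 against M0, Mgl2 read -0.0575 with quantile normalization repeated and -0.0856 (M1 array 1 left out) to 0.2334 with 1 array left out. Clec4n read -0.0668 with the mean of its probe sets, -0.34 with array weights and -0.62 (M1 array 2) to 0.4674 (M1 array 1) with 1 array left out, and also turned without M0 array 3 (-0.0586). Clec4d read 0.17 with the centring above. In M1 against M2, Clec4n read -0.0613 (M1 array 2) to 1.03 with 1 array left out. In M2 against M0, Cd72 read -0.0233 with arrays centred on their median and -0.0423 (M2 array 1) to 0.064 with 1 array left out, and also turned without M0 array 2 or 3. For 10058F4 against M2, Clec4n read 0.0156 with the mean of its probe sets, and Cd209a read 0.0124 with quantile normalization, 0.0075 with median centring, 0.0218 with array weights and -0.11 to 0.13 (M2 array 3) with 1 array left out. Between the agents and with 1 array left out, Mgl2 read -0.28 to 0.0376 (10058F4 array 2) and Cd72 -0.17 (nutlin-3a array 1) to 0.24. The cause was not tested in any of these cases.

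The number of arrays limits the precision. Some probe sets of Clec4n, Clec4d, Cd209a and Cd72 carry a suffix that marks probes shared by several transcripts, and a further probe set shared by Clec4a2 and Clec4b1 was not used.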

Other observations

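For each member, the 2 genes with the most similar log2 values over the 15 arrays are given as a description, with no test. The arrays fall into 5 groups of 3, so these correlations mostly follow the group means, and arrays are shared by all genes. Mrc1 was most like Rnase4 (Pearson r = 0.997; means of 10.02 in M0, 6.04 in M1 and 11.69 in M2) and the retinal reductase gene Dhrs3 (0.997). Clec7a was most like the lysosomal phospholipase Pla2g15 (0.992) and Gpr176 (0.989), and Clec10a like Dennd4c (0.987) and Marchf3 (0.985), a ubiquitin ligase gene that also stood highest with 10058F4 (8.20 against 7.42 in M2). Mgl2 was most like the VEGF receptor gene Flt1 (0.912), which averaged 8.10 in M2 cells alone, 6.85 under nutlin-3a and 6.41 under 10058F4, and Dolpp1 (0.909).

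Clec4e was most like the transcription factor Klf6 (0.993) and Acbd3 (0.990), and its neighbour Clec4d like the acetyl-CoA synthetase Acss2 (0.956) and Psen2 (0.950). Cd72 was most like Epsti1 (0.984) and the immunoproteasome subunit gene Psmb8 (0.984), both known as interferon-induced genes. Psmb8 averaged 12.48 in M1 and 10.79 in M0, with 10.74 in M2 cells alone, 10.31 under nutlin-3a and 10.09 under 10058F4. Lower r values were found for Clec4n (Tmem63a 0.938, Top3a 0.926), Clec4a2 (Limd1 0.941, Slc45a4 0.937) and Cd209a (Kcnip3 0.929, Cplane2 0.928).

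Neutrophil markers, 9 of 10 with a probe set, had a summed level of 9.84 or more in M0 against 9.06 to 9.41 in the other groups, with Cxcr2 below the 40th percentile in all groups. Such a sum follows its brightest genes, here Mmp8 (8.93, 8.98 and 8.70 in M0, 5.65, 5.88 and 5.27 in M1) and S100a8 (8.32, 8.38 and 8.24 in M0, 8.46, 8.40 and 8.22 in M1). Of the 8 tested, 4 were higher and 2 lower in M1 than in M0 (75.0% called against 72.7% of all genes). In M2, 1 was higher and 2 lower than in M0 (37.5% against 31.0%). The part of these markers in the M0 levels of the members was not tested.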
